A study of Mus musculus with 10 samples.

Results

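Bone morphogenetic proteins (BMPs) are secreted signals, and 9 genes of this pathway were followed through the RNA of mouse embryonic fibroblasts (MEFs) that lack the MiDAC histone deacetylase complex. They were chosen by name from the 53801 genes measured: the ligands Bmp2, Bmp4, Bmp5 and Bmp6, the secreted antagonists Grem1 and Nog, and Id1, Id2 and Id3, which are classical readouts of BMP signalling. All 9 were found, and all 9 were abundant enough to be tested. MEFs are primary connective tissue cells, grown here from C57BL/6 embryos at embryonic day 13.5 after the head, liver and heart were taken out. RNA was sequenced from 3 MIDEAS-/- and 3 MIDEAS+/+ lines of one mutant family and from 2 DNTTIP1-/- and 2 DNTTIP1+/+ lines of a second family. MIDEAS and DNTTIP1 are subunits of MiDAC, and each knockout is a constitutive small deletion in exon 2 of its gene, present in every cell of the embryo. No treatment was given to any line. The study calls its lines independent but does not say how many litters they came from.

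BMP ligands bind paired type I and type II receptor kinases, which phosphorylate Smad1, Smad5 and Smad9. These Smads enter the nucleus with Smad4 and switch on genes that include the Id family and the inhibitory Smad6. Antagonists such as Noggin (Nog) and Gremlin 1 (Grem1) bind the ligands outside the cell and keep them from the receptors. Id proteins pair with basic helix-loop-helix transcription factors but lack their DNA-binding region, and so hold those factors off DNA. In embryonic mesenchyme the pathway is best known for its part in cartilage, bone and limb development.

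Values are normalized counts: the reads of each gene in a library, scaled by the size factor of that library. Recovered reads came to 12339970 to 19761295 per library, and the library of MIDEAS-/- replicate 1 stood apart from the rest of its own group (chi-square per gene 61.7 and 51.9 against the other two, which differed by 19.3 from each other). In every library fewer genes held exactly 1 recovered read (1064 to 1874 genes) than exactly 2 (2036 to 2431 genes). A recovered read may therefore not be 1 independent fragment, which bears on the depth, the count models and the chi-square, and whether both reads of a pair were counted is not known. Dnttip1 had 197 and 173 normalized counts in DNTTIP1-/- lines and 434 and 443 in DNTTIP1+/+ lines (log2 fold change -1.25, standard error 0.16, limma adjusted p = 0.0594), and its exons overlap Gm11457 on the other strand. Elmsan1, the gene that encodes MIDEAS, had 1038, 1728 and 1590.4 in MIDEAS-/- lines and 1272, 1332 and 1576 in MIDEAS+/+ lines. Transcripts with a small deletion can still be counted, so Elmsan1 is no test of which lines are mutant. Each knockout was set against its own wild type on log2(value + 1) with limma, in 1 fit over 16227 genes, and a gene was called at a Benjamini-Hochberg adjusted p under 0.1. The mean of both knockout effects was tested in the same fit, and it uses all 10 libraries. In bulk RNA, fewer cells of a type and less RNA per cell cannot be told apart.

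Id2 was the only one of the 9 genes to pass the test in MIDEAS-/- MEFs. It was 1.88-fold higher there than in MIDEAS+/+ MEFs, and its mean over both knockouts was 1.82-fold higher. Across all genes, 5.65% were called in the MIDEAS comparison, 0.0308% in the DNTTIP1 comparison and 6.23% for the mean of both effects. Of the 9 genes, 1 was called in the MIDEAS comparison, 0 in the DNTTIP1 comparison and 1 for the mean, Id2 in each case, and 3.36% and 4.04% of all genes were called as higher in the MIDEAS comparison and for the mean. A count of 1 in 9 is too small to set against those shares. An unadjusted limma p under 0.05 was found for 1 of the 9 in the MIDEAS comparison (16.6% of all genes), for 2 in the DNTTIP1 comparison (Id2 and Id1; 6.46%) and for 4 for the mean (Id2, Nog, Id1 and Bmp4; 16.8%). In DNTTIP1-/- MEFs edgeR and DESeq2 on the recovered reads called 0 against the same wild types. The log2 fold changes of the 9 had a median of 0.17 in the MIDEAS comparison, 0.35 in the DNTTIP1 comparison and 0.29 for the mean, beside medians of -0.024, 0.00062 and -0.019 over all tested genes. Groups that did not overlap, with every knockout library higher, were seen for 1 of the 9 in the MIDEAS family (11.5% of all genes) and for 7 of the 9 in the DNTTIP1 family (20.1%), which rests on 2 lines against 2. Only Id2 did so in both families (5.09% of all genes).

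**Figure D1:**
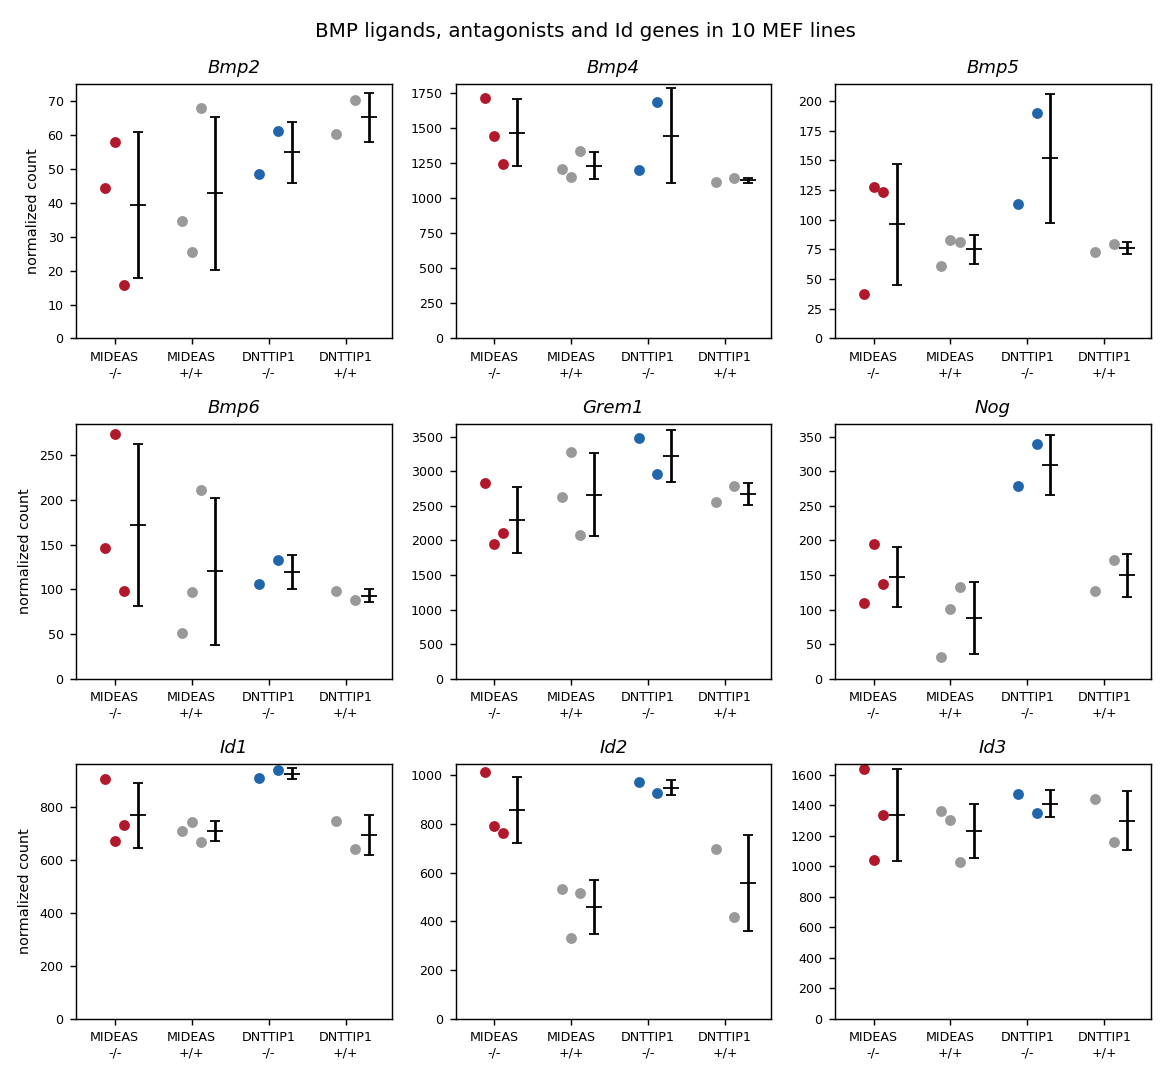
Normalized counts (y axis, linear, from 0) of the 9 BMP genes in each line, by group; coloured points are knockout lines, grey points wild-type lines, and the black bar beside them is the mean ± SD (n = 3 per MIDEAS group and 2 per DNTTIP1 group). Id2 has every knockout point above every wild-type point of its family, with 764 to 1013 in MIDEAS-/- lines against 333 to 532 in MIDEAS+/+ lines.

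To rank the genes against each other, normalized counts were divided by annotated exon length, taken over all transcripts of a gene. It was 1160 bp for Id1, 2438 bp for Id2 and 1791 bp for Id3. Every annotated transcript adds to this length, used or not, so the order also depends on the annotation. Over the 10 lines Id3 stood at 732 ± 107 per kb (SD, n = 10), Id1 at 659.9 ± 95.2, Grem1 at 643 ± 123 and Bmp4 at 589.7 ± 98.2. These 4 do not separate beyond their spread: Id3 was above Id1 in 8 of the 10 libraries, Id1 above Grem1 in 6, and Grem1 above Bmp4 in 5. Id2 followed at 286 ± 97.8 per kb, below Bmp4 in all 10 libraries, and Nog at 95.8 ± 53.0, below Id2 in all 10. The lowest were Bmp6 at 33.3 ± 16.9, Bmp5 at 24.1 ± 10.7 and Bmp2 at 13.7 ± 5.17 per kb, where Bmp6 exceeded Bmp5 in 6 libraries and Bmp5 exceeded Bmp2 in 9. Bmp4 therefore made up most of the ligand RNA in every group. The most even genes were Id1 and Id3, with a coefficient of variation of 14.4% and 14.6% over the 10 lines, and the most uneven was Nog with 55.4% and a 10.9-fold range.

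Bmp4 (ENSMUSG00000021835; mm10 chromosome 14, 46383520 to 46390669, minus strand), the main ligand gene of these cells, had 1716, 1446 and 1243 normalized counts in MIDEAS-/- lines, against 1207, 1153 and 1340.1 in MIDEAS+/+ lines. It had 1206 and 1685 in DNTTIP1-/- lines, against 1118 and 1142 in DNTTIP1+/+ lines. The MIDEAS groups overlapped and the DNTTIP1 groups did not. Its mean log2 fold change over both knockouts was 0.29 (standard error 0.12, limma adjusted p = 0.269), and an exact two-sided permutation of the labels within each family gave an unadjusted p of 0.0333. With 120 arrangements the smallest p that test can give is 0.0167. Exons of Bmp4 overlap those of Gm15217 on the other strand, and since no strand setting is given the reads of both cannot be told apart.

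Bmp5 and Bmp6, which encode ligands of one closely related group, were low and uneven. Bmp5 (ENSMUSG00000032179; chromosome 9, 75775364 to 75900310, plus strand) had 37.2, 128 and 124 normalized counts in MIDEAS-/- lines, against 61.3, 82.8 and 81.4 in MIDEAS+/+ lines, so that MIDEAS-/- replicate 1 was the lowest of all 10 libraries and the other 2 knockout lines lay above every wild type. In the DNTTIP1 family it had 113 and 190.3 in the knockout, against 72.8 and 79.9 in the wild type, without overlap. Its mean log2 fold change of 0.55 (standard error 0.36, limma adjusted p = 0.502) passed the threshold when MIDEAS-/- replicate 1 was left out (0.84, adjusted p = 0.0661). Bmp6 (ENSMUSG00000039004; chromosome 13, 38345107 to 38500302, plus strand) had 146, 273 and 97.9 in MIDEAS-/- lines, against 51.3, 97.1 and 211 in MIDEAS+/+ lines, and the groups overlapped widely. In DNTTIP1-/- lines it had 106 and 132, against 98.1 and 87.7 in DNTTIP1+/+ lines, and its mean log2 fold change was 0.49 (standard error 0.40, limma adjusted p = 0.613). Exons of Bmp5 overlap Gm26903, and those of Bmp6 overlap Txndc5, each on the other strand.

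Bmp2 (ENSMUSG00000027358; chromosome 2, 133552159 to 133562885, plus strand), a potent inducer of bone and cartilage, was the rarest of the 9 and the only one with a negative log2 fold change in both families. It had 44.4, 57.8 and 15.8 normalized counts in MIDEAS-/- lines, against 34.5, 25.5 and 68.1 in MIDEAS+/+ lines. In the DNTTIP1 family the counts were 48.4 and 61.2 in the knockout, against 60.1 and 70.2 in the wild type. The groups overlapped in both families, and the mean log2 fold change was -0.21 (standard error 0.40, limma adjusted p = 0.867). Its sign in the MIDEAS family turned without MIDEAS-/- replicate 3 (0.36) or without MIDEAS+/+ replicate 3 (0.21), and its mean turned without MIDEAS-/- replicate 3 (0.056).

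The antagonist Grem1 (ENSMUSG00000074934; chromosome 2, 113746164 to 113758646, minus strand) had a higher level than Nog in every group, per kb of exon. It had 2832, 1944 and 2108 normalized counts in MIDEAS-/- lines, against 2636, 3273 and 2083 in MIDEAS+/+ lines. In DNTTIP1-/- lines it had 3489 and 2956, against 2561 and 2787 in DNTTIP1+/+ lines. Its log2 fold changes had opposite signs, -0.21 (standard error 0.19, limma adjusted p = 0.645) in the MIDEAS and 0.27 (standard error 0.23, adjusted p = 0.901) in the DNTTIP1 comparison. The difference between these effects, -0.48 with a standard error of 0.29, did not pass the threshold (limma adjusted p = 0.990).

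Nog (ENSMUSG00000048616; chromosome 11, 89300638 to 89302332, minus strand), a single-exon gene for a high-affinity BMP trap, had the largest mean effect of the 9, with a wide error. It had 109, 195 and 137 normalized counts in MIDEAS-/- lines, against 31.2, 100.1 and 133 in MIDEAS+/+ lines. In DNTTIP1-/- lines it had 278 and 340.1, against 128 and 172 in DNTTIP1+/+ lines. The DNTTIP1 groups did not overlap, whereas MIDEAS-/- replicate 1 lay below the highest MIDEAS+/+ line. The log2 fold change was 0.93 (standard error 0.47) in the MIDEAS family, 1.05 (standard error 0.58) in the DNTTIP1 family and 0.99 (standard error 0.37) for the mean. None of the 3 passed the limma test (adjusted p = 0.369, 0.844 and 0.207), and the exact permutation p of the mean was 0.0333, unadjusted. Between the wild types, DNTTIP1+/+ lines averaged 149.6 and MIDEAS+/+ lines 88.1, a log2 difference of 0.97 (standard error 0.53, limma adjusted p = 0.528) that lies between the effects of the MIDEAS and the DNTTIP1 knockout.

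**Figure D2:**
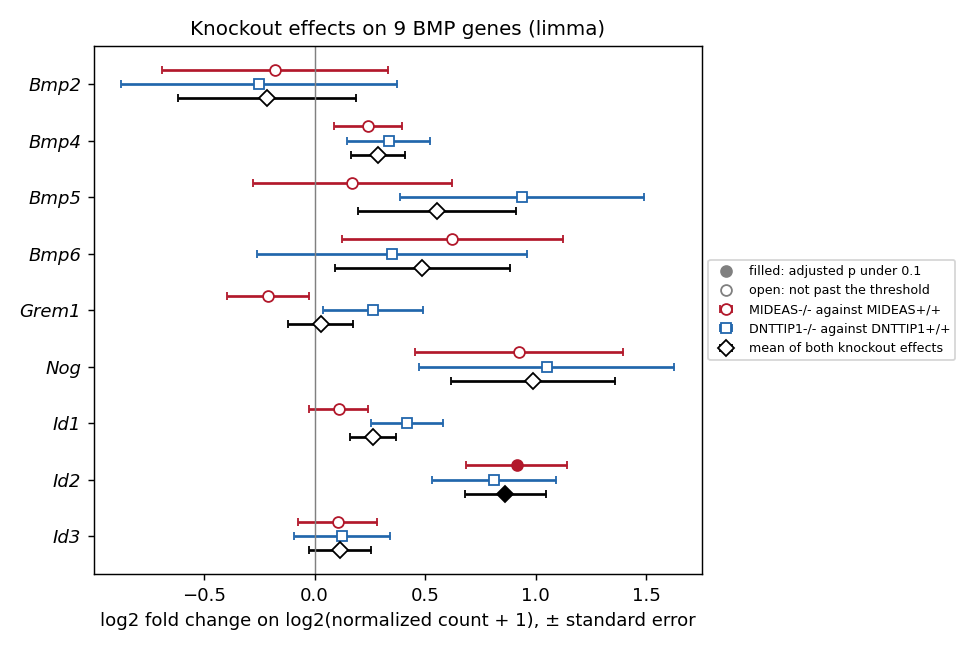
Log2 fold change (x axis) ± standard error of the 9 BMP genes from the limma fit, for MIDEAS-/- against MIDEAS+/+ (red circles), DNTTIP1-/- against DNTTIP1+/+ (blue squares) and the mean of both (black diamonds); filled symbols have an adjusted p under 0.1. The filled symbols are those of Id2 at 0.91 and 0.86, while Nog lies at 0.93, 1.05 and 0.99 with longer error bars.

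Id2 (ENSMUSG00000020644; chromosome 12, 25093799 to 25097140, minus strand) encodes an inhibitor of helix-loop-helix factors that is active in many progenitor cells. It had 1013, 793 and 764 normalized counts in MIDEAS-/- lines, against 532, 333 and 516 in MIDEAS+/+ lines. In DNTTIP1-/- lines it had 973 and 927, against 696 and 419 in DNTTIP1+/+ lines. All 5 knockout lines lay above all 5 wild-type lines, also across families. The log2 fold change was 0.91 (standard error 0.23, limma adjusted p = 0.0666) in the MIDEAS family and 0.81 (standard error 0.28, limma adjusted p = 0.587, unadjusted p = 0.0162) in the DNTTIP1 family. The 2 effects differed by 0.10 with a standard error of 0.36 (limma adjusted p = 0.990). For the mean it was 0.86 (standard error 0.18, limma adjusted p = 0.0352), and the exact permutation p was 0.0167, the smallest it can give.

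The call of Id2 depended on single libraries. The MIDEAS call was lost without MIDEAS-/- replicate 1 (adjusted p = 0.155), replicate 2 (0.147) or replicate 3 (0.124) or MIDEAS+/+ replicate 2 (0.242), while its log2 fold change stayed between 0.70 and 1.03. That of the mean ended when replicate 1 of DNTTIP1-/- (0.120) or replicate 2 of DNTTIP1+/+ (0.125) was left out, at log2 fold changes between 0.68 and 1.05, and was kept in the other 8 of 10 cases. Without the variance trend the MIDEAS call was lost as well (adjusted p = 0.137) and that of the mean was kept (0.0817).

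**Figure D3:**
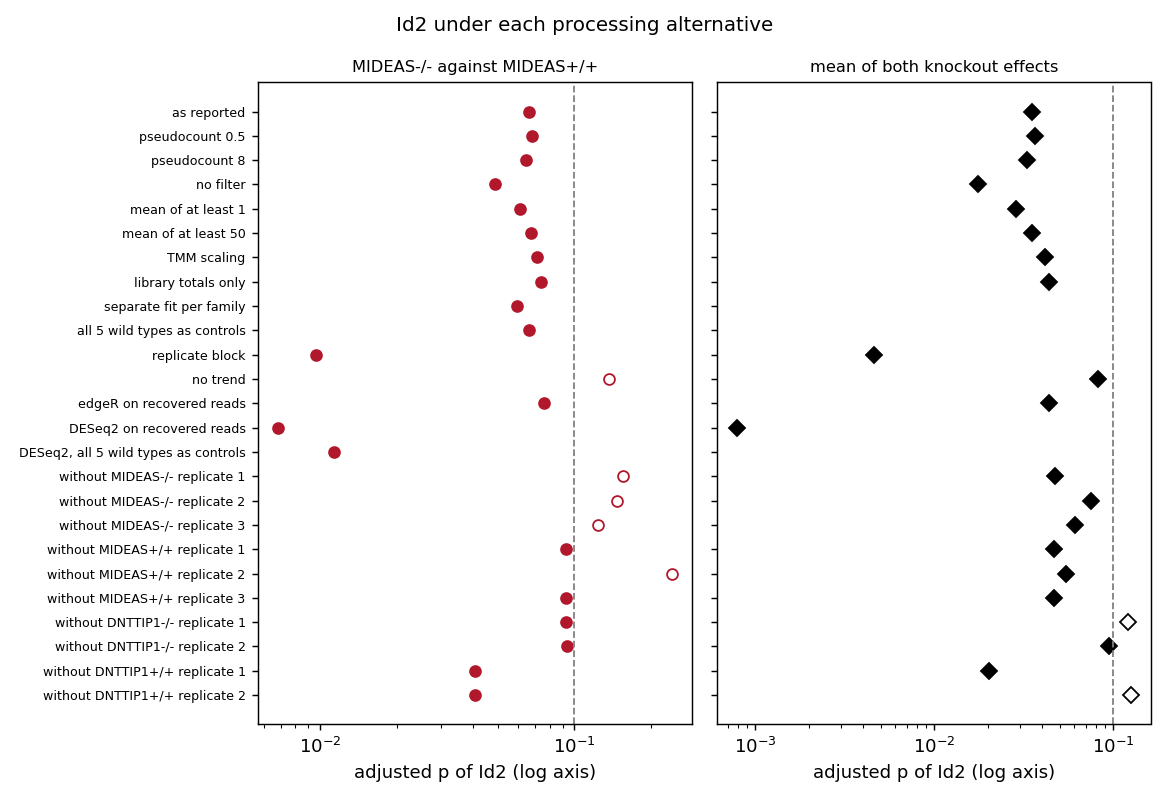
Benjamini-Hochberg adjusted p of Id2 (x axis, log scale) for the MIDEAS comparison (left) and the mean of both knockout effects (right) under each setting named at the left, with filled symbols under 0.1 and the dashed line at 0.1; comparisons that a setting does not give are blank. Symbols right of the line are no trend (0.137) and 4 left-out libraries for MIDEAS (up to 0.242), and 2 left-out libraries for the mean (up to 0.125).

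Id1 and Id3, which often respond to BMP together with Id2, did not pass the test. Id1 (ENSMUSG00000042745; chromosome 2, 152736251 to 152737410, plus strand) had 904, 669 and 729.9 normalized counts in MIDEAS-/- lines, against 709.9, 743 and 667 in MIDEAS+/+ lines. It had 909 and 938 in DNTTIP1-/- lines, against 747 and 638 in DNTTIP1+/+ lines, where the groups did not overlap. The log2 fold change was 0.11 (standard error 0.13, limma adjusted p = 0.760) in the MIDEAS and 0.42 (standard error 0.16, limma adjusted p = 0.698) in the DNTTIP1 family, and the permutation p of the mean was 0.10. Id3 (ENSMUSG00000007872; chromosome 4, 136143497 to 136145755, plus strand) had 1639, 1038 and 1332 in MIDEAS-/- lines, against 1364, 1299.9 and 1028 in MIDEAS+/+ lines. It had 1471 and 1348 in DNTTIP1-/- lines, against 1437 and 1160.0 in DNTTIP1+/+ lines. Both families overlapped for Id3, and its mean log2 fold change was 0.11 (standard error 0.14, limma adjusted p = 0.769).

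As a share of the RNA of the 3 Id genes, per kb of exon, Id2 made up 20.1 ± 1.73% (SD, n = 3) in MIDEAS-/- lines and 12.8 ± 3.33% (SD, n = 3) in MIDEAS+/+ lines. In the other family it made up 19.7 ± 0.23% (SD, n = 2) in DNTTIP1-/- lines and 14.5 ± 2.78% (SD, n = 2) in DNTTIP1+/+ lines. The lowest knockout line of either family (18.6%) was above the highest wild-type line (16.5%). This share contains the Id2 counts tested above and is not a separate measurement. Its size also depends on the annotated exon lengths.

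Across the 10 lines some of the 9 genes varied together and others did not. On log2(value + 1), Pearson's r was highest between Id1 and Id3 (0.76), Id1 and Id2 (0.68) and Bmp5 and Nog (0.66), and lowest between Bmp6 and Id3 (-0.50) and between Bmp6 and Grem1 (-0.49). Bmp4, the most abundant ligand, had r of 0.62 with Id2, 0.54 with Id1 and 0.13 with Id3. Grem1 had 0.62 with Id3, 0.61 with Id1 and -0.041 with Id2. These values describe 10 libraries that share a scaling and a family structure. Knockout and wild-type lines were pooled, so a difference between genotypes also enters r. The genes most like each member, by the same measure over all tested genes, were Agtr2 (r = 0.98), Gm43254 (0.98) and 6330403K07Rik (0.97) for Id2, Smim27 (0.96), Stxbp6 (0.92) and Igsf8 (0.92) for Id1, and the matrix genes Mgp (0.98) and Emilin1 (0.97) with Ifitm2 (0.96) for Id3. Nog was most like Chst8 (0.97), the Wnt inhibitor gene Wif1 (0.96) and Cadm3 (0.95), and Grem1 most like Epn1 (0.93), Fez1 (0.93) and Camk2g (0.92). Among the ligands, Bmp2 was most like Tmem39b (0.89), Gm10036 (0.87) and Gm31834 (0.87), and Bmp4 most like Agap3 (0.91), Zfp454 (0.88) and Gm17258 (0.86). Bmp5 went with Tmem120b (0.96), Stil (0.95) and E2f7 (0.94), and Bmp6 with Gm4482 (0.96) and Cilp2 (0.92).

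Of the 66 other genes listed for the BMP pathway, 57 were tested. The list was chosen with earlier results of these data known, so the shares below are not a test of the pathway. In MIDEAS-/- MEFs 5 were higher (Bmp3, Smad9, Sostdc1, Id4 and Dlx5), 2 were lower (Bmpr1b and Fstl3) and 50 did not pass the test, which makes 12.3% called beside 5.65% of all genes (2.29% as lower). In DNTTIP1-/- MEFs limma called 0 of 57 (0.0308% of all genes), with 11 at an unadjusted p under 0.05 (6.46% of all genes). There edgeR called 0 and DESeq2 called 2 (Smad6 and Smad9), and the DESeq2 count over all genes is given in the closing section. For the mean of both effects 6 were higher (Gdf5, Smad9, Smad6, Sostdc1, Id4 and Dlx5), 4 were lower (Bmp8b, Bmpr1b, Acvrl1 and Bmp1) and 47 did not pass, or 17.5% called beside 6.23% of all genes (2.19% as lower). The median log2 fold change of the 57 was 0.066 in the MIDEAS comparison, 0.12 in the DNTTIP1 comparison and 0.095 for the mean. The numbers called shifted with single libraries, as did those over all genes, which the closing section gives. The count for the MIDEAS comparison fell to 1 without MIDEAS+/+ replicate 2 and to 4, 3 and 2 without MIDEAS-/- replicates 1, 2 and 3, and was 11 without either DNTTIP1+/+ library. That for the mean fell to 4 without DNTTIP1-/- replicate 1 or DNTTIP1+/+ replicate 2, to 3 without DNTTIP1-/- replicate 2 and to 6 without MIDEAS+/+ replicate 2.

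Among other targets of the pathway, Id4, the fourth Id gene, had 784, 683 and 677 normalized counts in MIDEAS-/- lines, against 199, 275 and 455 in MIDEAS+/+ lines. It had 995 and 699 in DNTTIP1-/- lines, against 486 and 519 in DNTTIP1+/+ lines, so that neither family overlapped. Its log2 fold change was 1.28 (standard error 0.26, limma adjusted p = 0.0346) in the MIDEAS family and 1.01 (standard error 0.21, adjusted p = 0.0335) for the mean. Dlx5, a homeobox gene of early osteoblasts, had 130.1, 193 and 217 in MIDEAS-/- lines, against 44.6, 27.6 and 77.4 in MIDEAS+/+ lines, and 168 and 238 in DNTTIP1-/- lines, against 69.6 and 119.9 in DNTTIP1+/+ lines. For the mean of both effects the log2 fold change was 1.52 (standard error 0.31, limma adjusted p = 0.0330), again without overlap in either family. The calls of the mean were lost without DNTTIP1-/- replicate 1 for Id4 (adjusted p = 0.130) and without DNTTIP1-/- replicate 2 for Dlx5 (0.109). The MIDEAS calls of both ended when replicate 2 of MIDEAS-/- or of MIDEAS+/+ was left out, and that of Dlx5 also without MIDEAS-/- replicate 3 (adjusted p up to 0.133). With all 5 wild types as controls the MIDEAS call of Id4 was lost too. Exons of Id4 overlap A330033J07Rik and Gm49291 on the other strand.

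Id2 and Id4 were the 2 Id genes called, and both were higher, so the sequence before their start sites is shown to let the letters there be compared. RefSeq promoters on GRCm38.p6 (mm10) were matched for 6 of the 9 genes and for Id4, and the 250 bases before each start were searched on both strands for GGCGCC, a core that BMP Smads are known to bind, for the Smad box CAGAC, and for the E-box CANNTG of helix-loop-helix factors. Capitals mark GGCGCC and CANNTG, which do not overlap here. Bases inside annotated exons are left out of the printed stretches, which trims that of Id2 to its outer 89 bases. The search covered all 250 bases, also those in exons, and the windows of Id3 and Bmp6 lie wholly in exons. The Id2 stretch is chr12:25096254-25096342 on the minus strand and lies in an intron of the longer Id2 transcript, and the Id4 stretch is chr13:48260866-48261115 on the plus strand, upstream of the gene.
Id2: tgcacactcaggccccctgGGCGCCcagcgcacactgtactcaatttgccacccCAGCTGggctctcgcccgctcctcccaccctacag
Id4: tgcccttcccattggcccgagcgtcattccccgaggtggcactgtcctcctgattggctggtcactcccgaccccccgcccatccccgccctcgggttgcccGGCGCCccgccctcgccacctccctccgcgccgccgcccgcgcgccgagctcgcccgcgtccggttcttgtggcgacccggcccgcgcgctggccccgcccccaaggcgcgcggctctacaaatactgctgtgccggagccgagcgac
GGCGCC was found once for Id2, 231 bases before the start, once for Id4, 148 bases before it, and once for Grem1, 78 bases before it, and it is held by 9.59% of the 32851 promoters of this length. It was not found in the windows of Bmp4, Bmp5, Bmp6 or Id3. The share over all promoters is not matched for base composition, and their median GC was 52.4%. GC was 62.8% for Id2, 75.6% for Id4 and 72% for Grem1. For Bmp4, Bmp5, Bmp6 and Id3 it was 63.2%, 42.8%, 68.8% and 62.8%. CANNTG was found once for Id2, 196 bases before the start, and not for Id4 or Id3 (66.2% of all promoters hold it). CAGAC was found 2 times for Id3, within exon bases, and not for Id2 or Id4 (42.2% hold it). Such matches describe letters only.

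Within the signalling chain, Smad9 changed most firmly. This gene encodes a receptor-activated Smad of the BMP branch, and it had 246, 283 and 202 normalized counts in MIDEAS-/- lines, against 64.6, 147 and 107 in MIDEAS+/+ lines. It had 374 and 388 in DNTTIP1-/- lines, against 96.0 and 79.0 in DNTTIP1+/+ lines. The lowest knockout line had 202 and the highest wild-type line 147. Its log2 fold change was 1.25 (standard error 0.29, limma adjusted p = 0.0522) in the MIDEAS family, 2.12 (standard error 0.36, adjusted p = 0.147) in the DNTTIP1 family and 1.68 (standard error 0.23, adjusted p = 0.00714) for the mean. The call of the mean was kept without each of the 10 libraries in turn (adjusted p up to 0.0316), whereas in the MIDEAS comparison leaving out any MIDEAS-/- library or replicate 1 of MIDEAS+/+ ended the call (up to 0.162). The other 3 signalling Smads, Smad1, Smad4 and Smad5, were not called. Smad5 had the smallest p among them, with a log2 fold change of 0.18 (standard error 0.12, limma adjusted p = 0.50) in the MIDEAS family.

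Smad6, the inhibitory Smad of the BMP branch and itself a BMP target, had 1077, 1172 and 886 normalized counts in MIDEAS-/- lines, against 669.8, 791 and 932 in MIDEAS+/+ lines. It had 1499 and 1355 in DNTTIP1-/- lines, against 939.6 and 727 in DNTTIP1+/+ lines. The MIDEAS groups overlapped by 1 library and the DNTTIP1 groups did not. Its mean log2 fold change was 0.59 (standard error 0.13, limma adjusted p = 0.0389), and this call ended when replicate 1 of DNTTIP1-/- or replicate 2 of DNTTIP1+/+ was left out (adjusted p up to 0.157). Smad7, an inhibitor of both the BMP and TGF-beta branches, had a log2 fold change of -0.68 in the MIDEAS family (standard error 0.25, limma adjusted p = 0.193) and 0.11 in the DNTTIP1 family, and was not called.

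Sostdc1, a secreted antagonist of BMP and Wnt signals, had 22.7, 67.8 and 80.1 normalized counts in MIDEAS-/- lines, against 0, 0 and 7.82 in MIDEAS+/+ lines, where it was close to absent. DNTTIP1-/- lines had 129 and 198, against 8.44 and 60.4 in DNTTIP1+/+ lines. The groups of neither family overlapped, but DNTTIP1+/+ replicate 2 (60.4) lay above MIDEAS-/- replicate 1 (22.7). Between the wild types, DNTTIP1+/+ lines were higher by a log2 difference of 3.54, which limma did not call. Over both families the knockout log2 fold change was 3.68 (standard error 0.76, limma adjusted p = 0.0335), a value that depends on the constant added to such low counts and lay between 2.44 and 4.36 over the alternatives. The call was lost without DNTTIP1-/- replicate 2 (adjusted p = 0.104), and its MIDEAS call (4.62, adjusted p = 0.0362) without MIDEAS-/- replicate 2 or 3 or without replicate 2 of MIDEAS+/+ (up to 0.145), and with all 5 wild types as controls (limma or DESeq2). Fstl3, which encodes a follistatin-like protein that binds activins, had 138, 301 and 215 in MIDEAS-/- lines, against 347, 531 and 480.3 in MIDEAS+/+ lines. Its log2 fold change of -1.10 (standard error 0.30, limma adjusted p = 0.0902) was kept as a call in 4 of the 10 fits without 1 library, and lost without MIDEAS-/- replicate 1 or 3, any MIDEAS+/+ library or DNTTIP1-/- replicate 2. It was also lost with TMM scaling, library totals, all 5 wild types as controls, no trend, a threshold of 0.05 and edgeR. The exons of Fstl3 overlap Prss57 on the other strand.

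Both receptor genes that were called were lower. Bmpr1b, a type I receptor of limb cartilage, had 142, 140.3 and 191 normalized counts in MIDEAS-/- lines, against 283, 366 and 304 in MIDEAS+/+ lines, and 201 and 194 in DNTTIP1-/- lines, against 248 and 211 in DNTTIP1+/+ lines. Its log2 fold change was -1.01 (standard error 0.19, limma adjusted p = 0.0261) in the MIDEAS family, -0.21 (standard error 0.23, adjusted p = 0.939) in the DNTTIP1 family and -0.61 (standard error 0.15, adjusted p = 0.0584) for the mean. The MIDEAS call was lost without MIDEAS+/+ replicate 2 (adjusted p = 0.117), and that of the mean without 6 of the 10 libraries: both DNTTIP1-/-, both DNTTIP1+/+, MIDEAS-/- replicate 2 or MIDEAS+/+ replicate 2. Acvrl1, a type I receptor best known from blood vessels, had 511, 449 and 371 in MIDEAS-/- lines, against 455, 722 and 622 in MIDEAS+/+ lines, and 388 and 443 in DNTTIP1-/- lines, against 642 and 721 in DNTTIP1+/+ lines. Its mean log2 fold change was -0.57 (standard error 0.15, limma adjusted p = 0.0732), kept as a call only without MIDEAS-/- replicate 1 or MIDEAS+/+ replicate 1, and its exons overlap Gm16031 on the other strand. The coreceptor gene Rgma had a log2 fold change of 1.02 in the MIDEAS family (standard error 0.32, limma adjusted p = 0.128).

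**Figure D4:**
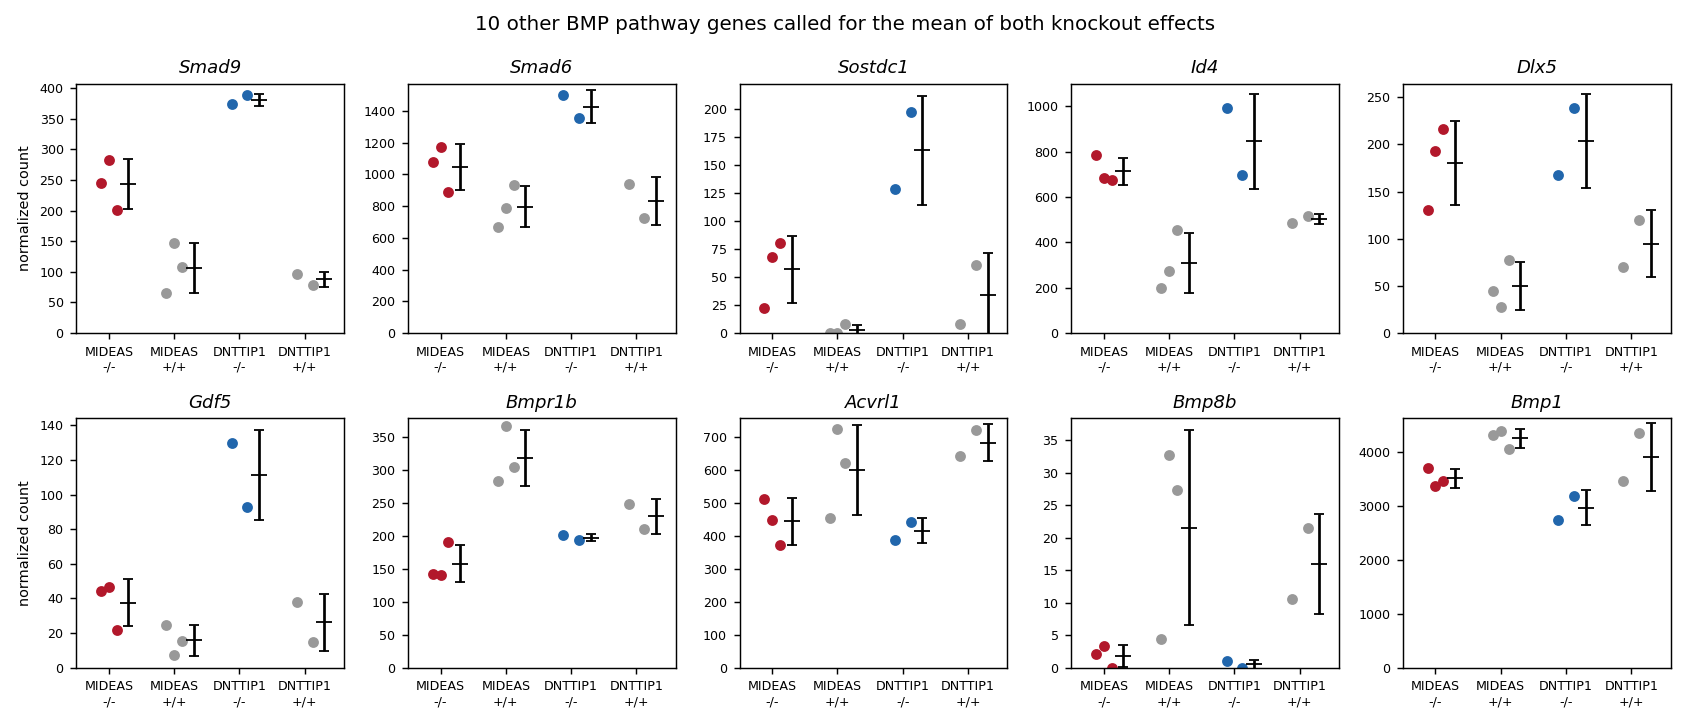
Normalized counts (y axis, linear, from 0) of the 10 other BMP pathway genes called for the mean of both knockout effects, by line and group; coloured points are knockout lines, grey points wild-type lines, and the black bar is the mean ± SD (n = 3 per MIDEAS group and 2 per DNTTIP1 group, with bars that reach below 0 ending at the axis). In the panel of Smad9 the knockout lines lie between 202 and 388 and the wild-type lines between 64.6 and 147.

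Of the other ligands, Gdf5, a factor of joint formation, had 44.4, 46.5 and 21.8 normalized counts in MIDEAS-/- lines, against 24.5, 7.15 and 15.6 in MIDEAS+/+ lines. It had 129.8 and 92.9 in DNTTIP1-/- lines, against 38.0 and 14.6 in DNTTIP1+/+ lines, without overlap in that family. Averaged over both knockouts the log2 fold change was 1.72 (standard error 0.42, limma adjusted p = 0.0576), a call that ended when either DNTTIP1-/- library, or replicate 2 of any other group, was left out (adjusted p up to 0.217). Bmp3, a ligand that opposes bone-forming BMPs, had 69.2, 105 and 59.3 in MIDEAS-/- lines, against 22.3, 12.3 and 28.9 in MIDEAS+/+ lines. In DNTTIP1-/- lines it had 48.4 and 33.9, against 103 and 29.2 in DNTTIP1+/+ lines. The log2 fold change was 1.87 (standard error 0.51, limma adjusted p = 0.0850) in the MIDEAS family and -0.44 (standard error 0.62, adjusted p = 0.955) in the DNTTIP1 family. The difference of these effects did not pass the threshold (2.30, limma adjusted p = 0.990), and the MIDEAS call was kept in 3 of 10 fits, those without MIDEAS+/+ replicate 3 or either DNTTIP1+/+ library. It was also lost with a minimum mean of 50, all 5 wild types as controls (limma or DESeq2), no trend, a threshold of 0.05 and edgeR. Exons of Gdf5 overlap Gm15557 on the other strand.

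Bmp8b was nearly silent in both knockouts, with 2.07, 3.32 and 0 normalized counts in MIDEAS-/- lines, against 4.46, 32.7 and 27.4 in MIDEAS+/+ lines, and 1.03 and 0 in DNTTIP1-/- lines, against 10.5 and 21.4 in DNTTIP1+/+ lines. Its mean log2 fold change of -3.19 (standard error 0.70, limma adjusted p = 0.0397) rests on few reads, lay between -4.22 and -1.45 over the alternatives, and ceased to be called when replicate 2 of DNTTIP1-/- or of DNTTIP1+/+ was left out (adjusted p up to 0.159). Bmp8a, a related gene on the same chromosome, had 0, 11.3 and 3.96 in MIDEAS-/- lines, against 15.6, 42.9 and 35.2 in MIDEAS+/+ lines (limma adjusted p = 0.103). In DNTTIP1-/- lines it had 8.24 and 8.75, against 8.44 and 12.7 in DNTTIP1+/+ lines (limma adjusted p = 0.990). Whether reads could be shared between Bmp8a and Bmp8b was not tested. Exons of Bmp8b also overlap Ppie and Gm17244 on the other strand. Bmp1 is no BMP ligand but a protease that cleaves procollagens and the antagonist chordin, and it had 3699, 3364 and 3451 in MIDEAS-/- lines, against 4316, 4379 and 4044 in MIDEAS+/+ lines. It had 2741 and 3189 in DNTTIP1-/- lines, against 3463 and 4341 in DNTTIP1+/+ lines. The mean log2 fold change was -0.33 (standard error 0.092, limma adjusted p = 0.0847), kept as a call only without MIDEAS-/- replicate 1 or DNTTIP1+/+ replicate 1. The related protease gene Tll1 was not called (MIDEAS log2 fold change -1.36, standard error 0.42, limma adjusted p = 0.124).

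The helix-loop-helix partners of the Id proteins were not called: of 5 tested (Tcf3, Tcf4, Tcf12, Twist1 and Twist2), 0 had an unadjusted p under 0.05 in either family with limma. Tcf3, which encodes the E2A factors, had the smallest p of the 5 in the MIDEAS comparison, at a log2 fold change of 0.14 (standard error 0.094, limma adjusted p = 0.504), followed by Twist1 at 0.16 (standard error 0.13, adjusted p = 0.632).

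The sums of some marker lists of other cell types did not overlap between knockout and wild type in either family. The summed normalized counts of 12 chondrocyte and osteoblast markers were 5569 to 6555 in MIDEAS-/- lines, against 3556 to 5141 in MIDEAS+/+ lines, and 8704 to 9724 in DNTTIP1-/- lines, against 5529 to 7162 in DNTTIP1+/+ lines. Of the 11 tested, 3 were higher and 0 lower in MIDEAS-/- MEFs (27.3%, beside 3.36% of all genes as higher). Bglap, a marker of mature osteoblasts, averaged 4.47. The largest part of this sum was Col2a1, the main collagen gene of cartilage, with 3574, 4621 and 3836 in MIDEAS-/- lines, against 2208, 2723 and 3426 in MIDEAS+/+ lines, and 5687 and 7244 in DNTTIP1-/- lines, against 2694 and 5023 in DNTTIP1+/+ lines. Acan, the cartilage proteoglycan gene, had 29.9, 251 and 261 in MIDEAS-/- lines, against 501, 26.6 and 526 in MIDEAS+/+ lines, and 149 and 407 in DNTTIP1-/- lines, against 348 and 665 in DNTTIP1+/+ lines, with overlap in both families. The 8 smooth muscle and myofibroblast markers summed to 6607 to 10099 in MIDEAS-/- lines, against 11350 to 17100 in MIDEAS+/+ lines, and to 7923 to 10585 in DNTTIP1-/- lines, against 11540 to 13279 in DNTTIP1+/+ lines. In MIDEAS-/- MEFs 0 of them were higher and 2 lower (25%, beside 2.29% of all genes as lower). The 7 adipocyte markers summed to 1663 to 3043 in MIDEAS-/- lines, against 803 to 876 in MIDEAS+/+ lines, and to 1848 to 2621 in DNTTIP1-/- lines, against 774 to 1780.0 in DNTTIP1+/+ lines, although the mature fat markers Adipoq, Plin1 and Cfd never exceeded 6.33. Of the 4 tested, 1 was higher and 0 lower in MIDEAS-/- MEFs (25%, beside 3.36% of all genes as higher). Lpl had 1824, 885 and 1068 in MIDEAS-/- lines, against 291, 347 and 243 in MIDEAS+/+ lines. Cebpa was also higher there without overlap, and Pparg overlapped. Fabp4 went the other way, with 97.1, 49.9 and 74.2 in MIDEAS-/- lines, against 172, 158 and 103 in MIDEAS+/+ lines. In the DNTTIP1 comparison limma, edgeR and DESeq2 each called 0 of the 11, 8 and 4 tested markers of these lists, and limma gave 2, 1 and 1 of them an unadjusted p under 0.05. The part of these cell types in the results above was not tested. Fibroblast markers summed to 64036 to 79142 in MIDEAS-/- lines, against 69732 to 84076 in MIDEAS+/+ lines, and to 76483 to 77350.4 in DNTTIP1-/- lines, against 71736 to 80356 in DNTTIP1+/+ lines, so the labelled cell type was well represented throughout. Single markers were not all steady. Of the 12 tested, 2 were higher and 0 lower in MIDEAS-/- MEFs (16.7%, beside 3.36% of all genes as higher). There 4 of the 12 had a positive log2 fold change. Lum had 1781, 1123 and 1380 in MIDEAS-/- lines, against 490, 96.1 and 304 in MIDEAS+/+ lines, and its DNTTIP1 groups overlapped. Dcn and Pdgfra were also higher in MIDEAS-/- lines without overlap. The sums of the epithelial, endothelial, macrophage, skeletal muscle and neural lists overlapped between knockout and wild type in both families. In MIDEAS-/- MEFs 1 endothelial marker was called higher, and 1 epithelial and 1 skeletal muscle marker lower. Of the macrophage and neural lists 0 were called there. All these marker lists are too short to set against the shares over all genes.

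Wild-type lines of the families were compared in the same fit as a background. Between DNTTIP1+/+ and MIDEAS+/+ lines limma called 0 of 9 BMP genes and 0% of all genes, with 0 of the 9 and 1731 of all genes (10.7%) at an unadjusted p under 0.05. On the recovered reads edgeR called 0 genes and DESeq2 called 267. With limma the count was 240 without MIDEAS-/- replicate 1 and 105 with the replicate number as a block. Pathway genes among these calls were Bmpr2 and Sostdc1 with DESeq2, Bmpr2 without that library, and Crim1 and Sostdc1 with the block, and 0 of the 9 were called in any of them. The difference between the MIDEAS and the DNTTIP1 effect was likewise called by limma for 0 of 9 and 0% of all genes, with 0 of the 9 and 453 genes (2.79%) at an unadjusted p under 0.05, 0 genes called by edgeR and 12 by DESeq2, of which 0 were among the 9. A difference between the knockouts was therefore not detectable for any of the 9 genes at this number of lines, which does not show that the effects were equal.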

How the data were processed

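RNA of 10 MEF lines was sequenced. The authors trimmed reads with Trim Galore 0.4.5 and cutadapt 1.11, dropped those under 35 bp, aligned them to mm10 with STAR 2.5.2b, removed duplicates with Picard and used SAMtools 1.3.2 and DESeq2, per the submitters' processing notes and methods. Duplicate removal lowers high counts more than low ones. For the read counter, its annotation and its strand setting: not given in the sources used here. Deposited signal values are counts that the authors normalized with size factors. Dividing by what 1 read is worth gave whole numbers for 100% of them (tolerance 0.01), so reads were recovered. The authors' own comparison tables (fold changes and p-values) were not used.

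Symbols were matched by gene ID, and exon lengths and overlaps were taken from GENCODE vM21. The 16227 genes averaging 10 or more were fitted as log2(value + 1), which understates changes of low genes, with limma 3.58.1 (trend, robust) in R 4.3.3 over 4 groups. As groups share 1 estimate of the spread, p-values measure the spread between these lines. Permutations were exact, within family, two-sided and unadjusted; within 1 family the smallest p is 0.10 (3 against 3) or 0.333 (2 against 2). Alternatives, with edgeR 4.0.16 and DESeq2 1.42.0 on recovered reads, are given in the closing section, and fits were tested on simulated data. The 9 genes and all lists were chosen with earlier results of these data known. Named genes are the 9, the targeted genes, called genes of each pathway list or otherwise up to 2 with the smallest MIDEAS p, and the 3 genes most like each member (1 of those for Bmp6 is not reported here), while Smad5, Smad7, Rgma, Tll1 and Bmp8a were added after their values were seen. Cell type markers were planned as list counts and sums, with single markers only at 0. The single markers named above were therefore additions to the plan too. No pair of replicates differed by less than sampling noise (chi-square per gene 18.2 to 61.7). Figures used matplotlib 3.10.9 in Python 3.11.15.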

Additional observations from a re-analysis of the deposited data

How the results depend on the processing

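Over the 15 alternatives (12 for the mean) and 10 left-out libraries, the sign of Bmp4, Bmp6, Nog and Id2 held in both families and the mean. Id2 in the MIDEAS comparison was called in all settings but no trend (0 of the 9 genes called), a threshold of 0.05 (0) and 4 left-out libraries (range 0 to 1). For the mean the number called was 0 to 2 without 1 library, and 2 with the replicate block (Nog added, 0.99, adjusted p = 0.0572). In the DNTTIP1 comparison it was 2 with DESeq2 and all 5 wild types as controls (Id2 0.93, adjusted p = 0.0172, and Nog 1.45, adjusted p = 0.0753).

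Of the 57 other pathway genes, the MIDEAS comparison called 14 with a separate fit per family, 4 with all 5 wild types, 18 with the replicate block, 4 at 0.05, 16 with DESeq2, 14 with DESeq2 and all 5 wild types, and 1 to 11 without 1 library. The DNTTIP1 comparison called 1 with no filter, 3 with all 5 wild types, 1 with the replicate block, 2 with DESeq2 and 8 with DESeq2 and all 5 wild types. The counts over all genes moved under these alternatives too. They ranged from 466 to 2127 in the MIDEAS comparison, 0 to 720 in the DNTTIP1 comparison and 575 to 1970 for the mean. The mean called 19 with the replicate block, 6 at 0.05, 17 with DESeq2 and 3 to 13 without 1 library.

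Reversed signs were Bmp2 in the DNTTIP1 comparison with all 5 wild types (0.18) or DESeq2 with them (0.082), and, without 1 library, Bmp2 (MIDEAS -0.54 to 0.36, mean -0.40 to 0.056), Bmp5 (MIDEAS -0.13 to 0.75), Grem1 (mean -0.055 to 0.11), Id1 (MIDEAS -0.015 to 0.20) and Id3 (MIDEAS -0.055 to 0.27, DNTTIP1 -0.029 to 0.28). The cause of these changes was not tested.

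Over all genes the MIDEAS count of 917 became 2127 with the replicate block, 546 with no trend, 466 at 0.05, 1674 with DESeq2, 1700 with DESeq2 and all 5 wild types, and 264 to 1014 without 1 library. The DNTTIP1 count of 5 became 17 with no filter, 0 with separate fits, 126 with all 5 wild types, 94 with the block, 0 at 0.05, 206 with DESeq2, 720 with DESeq2 and all 5 wild types, and 0 to 4 without 1 library. The count of 1011 for the mean became 1970, 575, 1731 and 371 to 1444 with the block, 0.05, DESeq2 and 1 library left out. Deviations of same-numbered lines correlated at 0.21, -0.11 and -0.049 in the MIDEAS family, so the numbers were not taken to pair those lines. In the DNTTIP1 family both same-numbered pairs had 0.66, which with 2 lines a group is 1 value and not 2, and whether the numbers pair those lines is not settled. Between the wild types the block gave 105 calls and leaving out MIDEAS-/- replicate 1 gave 240, against 0, and the block gave 3 for the difference of the effects, against 0.

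Each group holds 2 or 3 lines. A lone line left in a group is assumed to vary like the others. Low genes such as Bmp2 and Bmp8b rest on few reads.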
